A study of Homo sapiens with 1 sample.

Results

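The miR-17 seed family was measured on 1 microRNA (miRNA) array. The RNA came from DLD-1, a cell line of human colorectal carcinoma, after transfection of si-NC, an siRNA used as negative control. Of the 2549 human miRNAs on the array, the 5 analysed here were hsa-miR-17-5p, hsa-miR-20a-5p, hsa-miR-20b-5p, hsa-miR-93-5p and hsa-miR-106b-5p (written without hsa- below), chosen by name as miRNAs with the miR-17 seed from 3 related gene clusters. They were read by 11 of the 5893 miRNA probes and 100 of the 50980 miRNA spots. The study looked for miRNAs that change when circLONP2, a circular form of LONP2 RNA, is knocked down or overexpressed. It overlaid them with miRNAs changed by knockdown of the protein DDX1. The arrays of these treatments were not analysed here. No groups could be compared, no test was run, and each error below is technical because a single array holds no biological replicate.

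Drosha with DGCR8 in the nucleus and then Dicer in the cytoplasm release each miRNA from its hairpin, and the 5p arm, the 3p arm or both can persist as mature miRNAs. Bases 2 to 8 of the mature miRNA, the seed, pair with target mRNAs and largely set which genes are repressed. The miR-17 family is carried by the oncogenic miR-17-92 cluster and its paralogues miR-106a-363 and miR-106b-25. A known target is CDKN1A, which encodes a cell cycle inhibitor. In colorectal tumours the miR-17-92 cluster is a known target of the transcription factor MYC.

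The mature sequences, from RefSeq on GRCh38.p14, are shown because they define the family and mark where the members differ. The seed is in capitals.

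miR-17-5p: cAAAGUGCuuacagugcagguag
miR-20a-5p: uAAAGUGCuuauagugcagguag
miR-20b-5p: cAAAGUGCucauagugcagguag
miR-93-5p: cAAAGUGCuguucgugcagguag
miR-106b-5p: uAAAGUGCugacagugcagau

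In the same build miR-17-5p lies at chr13:91350618-91350640 and miR-20a-5p at chr13:91351072-91351094, both on the plus strand inside MIR17HG, the noncoding host gene of miR-17-92. The 2 members of miR-106b-25, miR-93-5p at chr7:100093815-100093837 and miR-106b-5p at chr7:100094043-100094063, lie on the minus strand inside MCM7, which encodes a subunit of the replicative helicase. For miR-106a-363, miR-20b-5p lies at chrX:134169850-134169872 on the minus strand inside the noncoding host gene MIR106AHG. The paralogue miR-106a-5p was not analysed here.

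Over the 21 bases that every member has, 15 positions were identical in all 5 members. The 6 positions that differed were 1, 10, 11, 12, 13 and 20, counted from 1 at the 5′ end. All lie outside the seed by construction, because the members were chosen for sharing it. The members other than miR-106b-5p also ended in the same 10 bases, gugcagguag. In the substitutions that follow, the base of the first-named miRNA comes before the position and that of the second after it. From miR-17-5p to miR-20a-5p the changes were C1U and C12U, from miR-17-5p to miR-20b-5p they were U10C and C12U, and from miR-20a-5p to miR-20b-5p they were U1C and U10C. These 3 miRNAs thus differed from each other by 2 bases. Over 21 bases miR-106b-5p differed from miR-17-5p and from miR-20a-5p by 3 bases. The pair farthest apart was miR-93-5p and miR-106b-5p, with 5 mismatches.

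All 5 members were called detected by the scanner software, against 44.4% of the miRNAs on the array, and all 20 spots of each were well above background, against 25.2%. The lowest member spot had a background-subtracted intensity of 2523, in arbitrary units, while the 99th percentile of the 1000 negative control spots was 16.1. Under 3 other rules for detection all 5 members also passed, against smaller shares of the 2549 miRNAs. The share was 37.9% where 1 probe had to have 50% or more of its spots well above background, 29.3% where every probe had to, and 31.0% with the median spot above that percentile of the negative control spots. Local background under the member spots ran from 11 to 13. None of the 100 spots was saturated or flagged as an outlier. Spots flagged as outliers made up 4.51% of all miRNA spots and 2.81% of the spots of probes with a mean of 1000 or more. Marker lists were read beside the label of the line. For colon epithelium, 10 of 10 miRNAs were detected, with a summed signal of 31219, of which 9249 came from 1 miRNA, miR-200b-3p. Whether these miRNAs set colon apart from other epithelia was not tested. Of the markers of other cells, 4 of 6 were detected for blood (summed signal 784, of which 695 came from 1 miRNA), 2 of 6 for stroma and vessel (166), 1 of 6 for muscle (12.9) and 1 of 3 for liver and neural cells (22.3). These sums rest on different probes and are given as a description.

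In the miR-17-92 cluster, miR-20a-5p gave the brightest spots of the family. Its 10 spots on probe A_25_P00010612 ran from 36238 to 39675, with a median of 38611 and a mean of 38293 ± 1152 (SD). On probe A_25_P00010613 its 10 spots ran from 26413 to 29462, with a median of 27711 and a mean of 27755 ± 911. The highest spot of the dimmer probe lay below the lowest spot of the brighter probe.

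The miRNA followed by the study, miR-17-5p, was the only member read by 3 probes. The 6 spots of probe A_25_P00014819 ran from 19538 to 20551, with a median of 20363 and a mean of 20224 ± 361 (SD). The 7 spots of probe A_25_P00013841 ran from 12862 to 14369, with a median of 13752 and a mean of 13651 ± 548. The 7 spots of probe A_25_P00011991 ran from 8858 to 10038, with a median of 8987 and a mean of 9334 ± 521. The 3 sets of spots did not overlap, so the signal read for this miRNA depended on the probe.

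In the miR-106a-363 cluster, the 10 spots of miR-20b-5p on probe A_25_P00010614 ran from 22878 to 24570, with a median of 23828 and a mean of 23861 ± 565 (SD). On probe A_25_P00010615 they ran from 14177 to 15809, with a median of 15359 and a mean of 15170 ± 555. Both probes of miR-20b-5p were dimmer than both probes of miR-20a-5p.

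The 2 members of miR-106b-25 were the dimmest. For miR-106b-5p the 10 spots of probe A_25_P00010433 ran from 6814 to 7532 (median 7116, mean 7166 ± 252, SD). Those of probe A_25_P00010434 ran from 5594 to 6117 (median 5863, mean 5865 ± 186). For miR-93-5p, which shares the MCM7 transcript with miR-106b-5p, the 10 spots of probe A_25_P00010610 ran from 3251 to 3600 (median 3457, mean 3428 ± 129). Those of probe A_25_P00010611 ran from 2523 to 2775 (median 2653, mean 2636 ± 93.7). Again neither pair of probes overlapped, and every spot of miR-93-5p lay below every spot of miR-106b-5p.

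**Figure D1:**
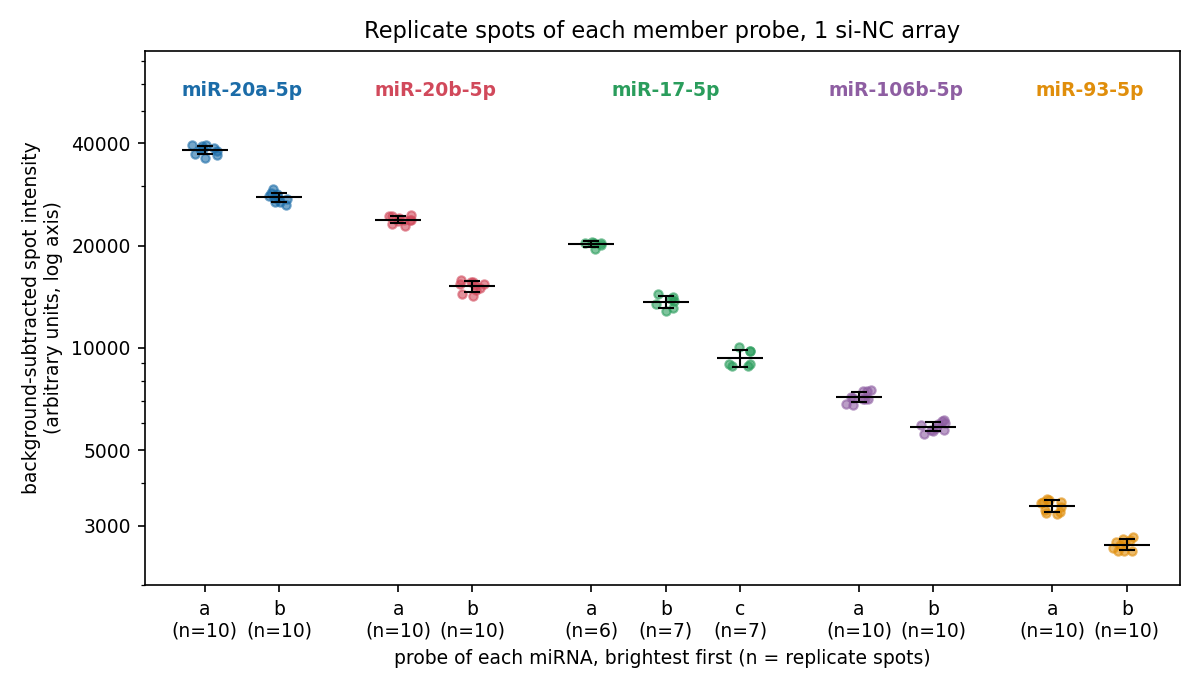
Background-subtracted intensity (arbitrary units, log axis) of the 100 replicate spots of the 5 members, by probe with the brightest probe first. Points are spots, horizontal lines are probe means and bars are the SD over spots. Means run from 2636 for the dimmer probe of miR-93-5p to 38293 for the brighter probe of miR-20a-5p, and the spots of different probes of a miRNA do not overlap.

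The software condenses the spots into a total gene signal for each miRNA. It was 12080 ± 865 (error from the software) for miR-20a-5p, 7139 ± 517 for miR-20b-5p, 5162 ± 307 for miR-17-5p, 2383 ± 169 for miR-106b-5p and 1109 ± 79.1 for miR-93-5p. Among the 1133 detected miRNAs these signals ranked 10, 17, 25, 42 and 59 from the top. The 5 members made up 5.76% of the summed signal of detected miRNAs. Signals of different probes depend on how each probe binds, so the order is one of signal and was not read as abundance.

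Levels were also taken from the spots themselves, as log2 of the intensity over a reference of 143, the 75th percentile among spots whose miRNA was detected. Averaged over probes, this level was 7.84 ± 0.05 (SD of spots about their probe mean, 20 spots) for miR-20a-5p, 7.06 ± 0.04 for miR-20b-5p, 6.59 ± 0.06 for miR-17-5p, 5.51 ± 0.05 for miR-106b-5p and 4.40 ± 0.05 for miR-93-5p. The highest and the lowest member were 3.44 apart. Neighbours in this order were then set against the differences between probes. The dimmest probe of miR-20a-5p, at 27755, lay above the brightest of miR-20b-5p, at 23861. The dimmest probe of miR-17-5p, at 9334, lay above the brightest of miR-106b-5p, at 7166, and the dimmest of miR-106b-5p, at 5865, above the brightest of miR-93-5p, at 3428. For miR-20b-5p and miR-17-5p the probes overlapped. Their total gene signals differed by 0.47 ± 0.14 on the log2 scale with the error of the software, yet the brightest probe of miR-17-5p, at 20224, lay above the dimmer probe of miR-20b-5p, at 15170. With the brightest probes compared, miR-20b-5p stood above miR-17-5p, at 23861 against 20224. With the dimmest compared it also did, at 15170 against 9334. The order of these 2 members thus depended on which probes were read, and reversed only between the brightest probe of miR-17-5p and the dimmer one of miR-20b-5p.

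The 3 brightest members were also the 3 that lie within 2 bases of each other. The files used here give no probe sequences, and whether a probe of one member also reads the RNA of another was not tested.

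Each member is cut from a hairpin whose other arm was also on the array. The hairpins held by the reference table are shown from 5′ to 3′ with both mature arms in capitals, to place the 2 arms that were read.

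MIR17: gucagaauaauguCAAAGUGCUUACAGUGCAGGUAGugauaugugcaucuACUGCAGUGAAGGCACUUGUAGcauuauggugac
MIR20A: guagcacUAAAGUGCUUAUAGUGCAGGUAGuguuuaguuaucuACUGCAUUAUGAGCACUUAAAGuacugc
MIR106B: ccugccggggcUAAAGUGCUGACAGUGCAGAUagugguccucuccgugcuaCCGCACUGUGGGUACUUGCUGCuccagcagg

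These lie at chr13:91350605-91350688 (plus strand), chr13:91351065-91351135 (plus strand) and chr7:100093993-100094074 (minus strand) of GRCh38.p14.

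The other arms fell into different classes by cluster. In miR-17-92 both were read by every spot. The 10 spots of miR-17-3p ran from 1150 to 1254 on its brighter probe and from 634 to 725 on its dimmer one, and those of miR-20a-3p from 757 to 850 and from 358 to 442. In miR-106b-25 both 3p arms were called detected through few spots. For miR-106b-3p, 1 of its 4 probes had all 5 spots well above background, with a mean of 44.2 ± 2.47 (SD), and the other probes had means of 10.8, 2.29 and -1.10. For miR-93-3p, 1 of 4 probes had all 5 spots well above background, with a mean of 26.03 ± 0.876, and the other means were 7.96, 2.34 and 1.86.

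In miR-106a-363 the 3p arm was not detected. The 4 probes of miR-20b-3p had means of -1.15, -0.371, -0.544 and -0.70, and 0 of its 20 spots were well above background. Its 5p arm, miR-20b-5p, thus stood beside an arm with no signal over background, while the other 4 member hairpins had both arms called detected. Over all other arms of the 3 clusters on the array, opposite arms included, 15 of 22 were called detected. That is 68.2% against 44.4% of all miRNAs. The pooled share hides a split, because every arm that was not detected came from miR-106a-363. Each of those arms had 0 of 20 spots well above background. From the same cluster miR-18b-5p was called detected, with probe means from 157 to 1802. Whether the signal of miR-20b-5p arises from miR-106a-363 was not tested. Besides the 3p arms of miR-106b-25, some of the 15 calls of detection rested on few spots. Of 20 spots, those well above background were 4 for miR-18a-3p, 5 for miR-25-5p and 6 for miR-19a-5p, with total gene signals of 2.32, 3.81 and 2.77. Because the arms of a cluster share a transcript and some are near-identical between clusters, they are not independent of each other.

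**Figure D2:**
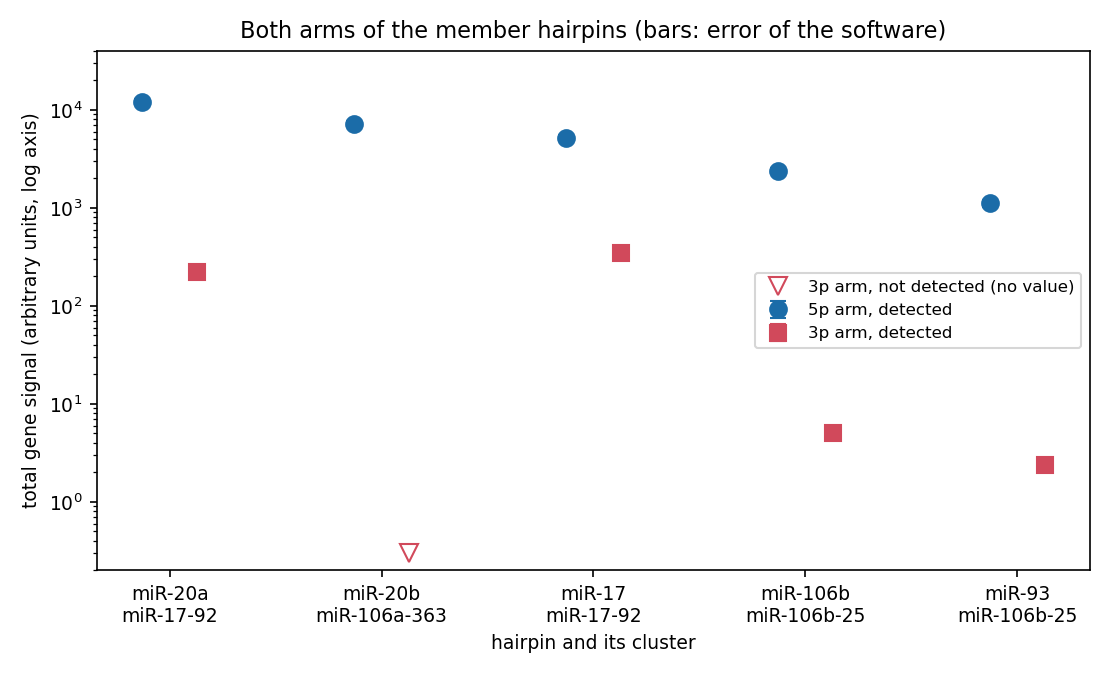
Total gene signal (arbitrary units, log axis) of the 5p arm, circles, and the 3p arm, squares, of the 5 member hairpins, with the cluster named under each. Bars are the error of the software and are smaller than most symbols, and the open triangle marks miR-20b-3p, which was not detected and has no value. The 5p arms lie between 1109 and 12080, and the 3p arms of miR-106b and miR-93 lie at 5.03 and 2.38.

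The seed was then looked for outside the 5 members. RefSeq held a mature sequence for 2248 of the 2549 miRNAs, and among these 2 more carried the seed of the family, both from the primate placental cluster on chromosome 19. They are shown because they match the members at the seed and differ after it.

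miR-519d-3p: cAAAGUGCcucccuuuagagug
miR-526b-3p: gAAAGUGCuuccuuuuagaggc

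They lie on the plus strand of GRCh38.p14 at chr19:53713400-53713421 and chr19:53694443-53694464. For miR-519d-3p the probe means were 13.1 ± 2.17 and 10.4 ± 1.73 (SD), both below the 99th percentile of the negative control spots, and 6 of 20 spots were well above background. It was called detected with a total gene signal of 4.30 ± 0.743. For miR-526b-3p the probe means were -0.488 and -1.87, and it was not detected. The lowest spot of any member, 2523, was far above the probe means of both.

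A further 17 miRNAs held the last 6 bases of the seed, AAGUGC, at bases 1 to 6 or 2 to 7 rather than the full seed. They include the miR-302 family of pluripotent cells. Of these, 4 of 17 (23.5%) were called detected, against 44.4% of all miRNAs. The detected ones were miR-372-3p with a total gene signal of 35.0 ± 2.58, miR-373-3p with 34.2 ± 2.52, miR-371a-3p with 6.82 ± 0.834 and miR-519e-3p with 2.24 ± 0.531. All 5 miR-302 members read were not detected.

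The miRNAs outside the family with the fewest mismatches to a member were miR-18a-5p and miR-18b-5p, of miR-17-92 and miR-106a-363. Each differed from miR-20a-5p by 4 bases. They are shown because they are close to the members along the whole miRNA but carry another seed.

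miR-18a-5p: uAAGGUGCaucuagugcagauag
miR-18b-5p: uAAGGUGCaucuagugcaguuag

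The means of both probes of miR-18a-5p were 2495 ± 74.9 and 2129 ± 104 (SD). The miRNA miR-18b-5p, which differs from it by A20U, had probe means of 1802 ± 66.3, 1023 ± 43.2 and 157 ± 12.3. The lowest and the highest probe of miR-18b-5p were 3.52 ± 0.05 (SE) apart on the log2 scale, the 14th largest difference of 800 miRNAs, where those of miR-18a-5p were 0.23 ± 0.03 apart.

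Differences between probes within the family were then described. The brightest probe exceeded the dimmest by 1.12 ± 0.03 (log2, SE from replicate spots) for miR-17-5p, 0.65 ± 0.02 for miR-20b-5p, 0.46 ± 0.02 for miR-20a-5p, 0.38 ± 0.02 for miR-93-5p and 0.29 ± 0.02 for miR-106b-5p. Over the 800 detected miRNAs with at least 2 probes well above background the median difference was 0.35, with quartiles of 0.14 and 0.81. That median depended on how dim probes were treated. It was 0.17 after normexp background correction, which adds an offset of 50, and 0.46 over 1118 miRNAs with no filter on dim probes, while the median of the 5 members was 0.46 in both cases. A difference of 1 or more was found for 1 of the 5 members, miR-17-5p, against 19.6% of those 800. The probes of miR-17-5p were 2.17-fold and 1.48-fold below the brightest. Its difference ranked 135 of 800. As a miRNA with 3 probes offers more chances of a wide range, it was also set beside the 61 miRNAs with 3 such probes, whose median was 0.51 with an upper quartile of 1.25.

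The spots of the brightest and the dimmest probe did not overlap for any of the 5 members, against 48.6% of the 800. That share was 75.6% of the 90 miRNAs whose probes all had a mean of 1000 or more, where the spread of spots is small, and the median difference of these 90 was 0.34. 

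**Figure D3:**
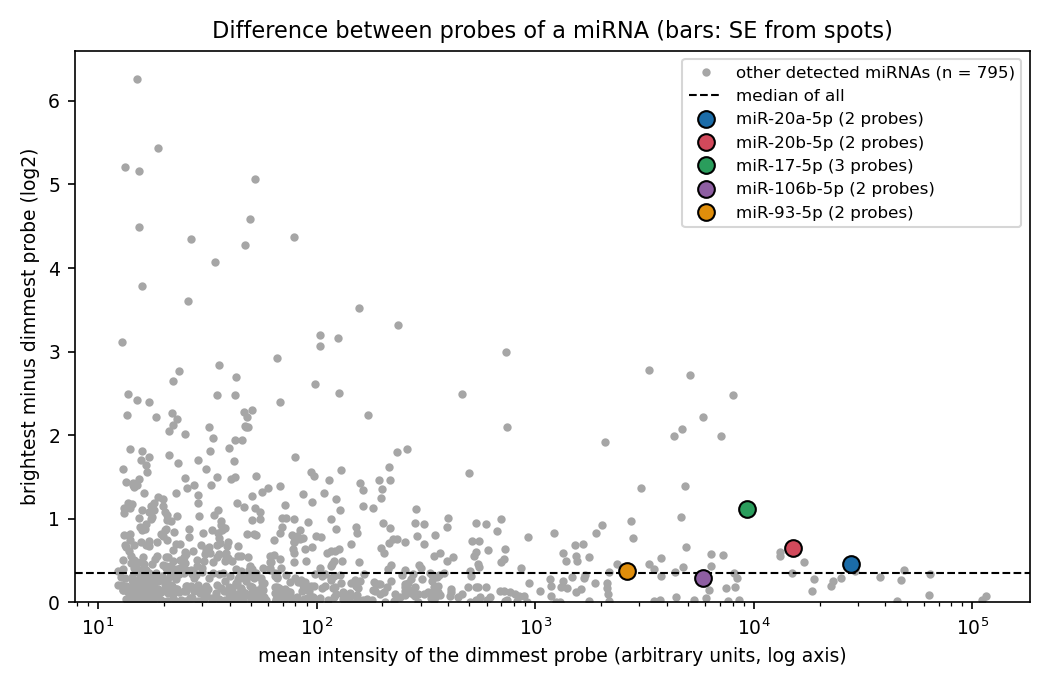
Difference between the brightest and the dimmest probe of a miRNA (log2) against the mean intensity of the dimmest probe (arbitrary units, log axis), for 795 other detected miRNAs in grey and the 5 members in colour. Bars on the members are the SE from replicate spots, smaller than the symbols, and the dashed line is the median of all 800, 0.35. Of the members, miR-17-5p lies at 1.12 and the others between 0.29 and 0.65.

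The total gene signal takes in these probes by a fixed rule. For the 743 probes with a mean of 100 or more, the total probe signal was 0.0183 times the mean spot signal times the number of spots. Every miRNA has 20 spots, so the total gene signal of a member is 0.366 times the mean of its probe means weighted by their spots. For miR-17-5p that total would be 7398 if all 20 spots read like its brightest probe and 3414 if they read like its dimmest. For miR-20b-5p the same bounds were 8728 and 5549, which overlap those of miR-17-5p. For miR-20a-5p they were 14007 and 10153, for miR-106b-5p 2621 and 2145, and for miR-93-5p 1254 and 964.

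The error of the software did not include this disagreement. It set the error of a bright spot at 10.0% of its signal, and the error of a total gene signal equalled the errors of the probe totals added in quadrature. The error was therefore 5.94% for miR-17-5p, with 3 probes, and between 7.11% and 7.25% for the other members, with 2. By comparison, the SD between probe means was 38.1% of their mean for miR-17-5p, 31.5% for miR-20b-5p, 22.6% for miR-20a-5p, 18.5% for miR-93-5p and 14.1% for miR-106b-5p. The member with the smallest error from the software had the widest spread between probes.

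Replicate spots of a member probe varied less than either. The coefficient of variation (CV) over spots ran from 1.79% to 5.58% over the 11 probes, with a median of 3.51%, against a median of 3.76% over the 208 probes with a mean of 1000 or more. The extremes were both probes of miR-17-5p, its brightest at 1.79% and its dimmest at 5.58%.

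Part of this spread moved with place on the array. In rows 7 to 94, 23 of 26 member spots lay below the mean of their probe. The mean deviation of the 26 was -0.05 ± 0.03 on the log2 scale (SD of spots), which is 96.7% of the probe mean. In rows 193 onward the mean deviation was 0.02 in each of the upper 2 of 4 equal ranges, where 7 of 28 and 7 of 23 spots lay below. The 197 other probes with a mean of 1000 or more deviated by -0.04 in the same first rows and by 0.03 in the last. When the median deviation of each of 16 blocks of the array was taken out, the CV of the member probes fell to between 1.47% and 3.21%, with a median of 2.33%, and the difference between probes of miR-17-5p became 1.08.

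**Figure D4:**
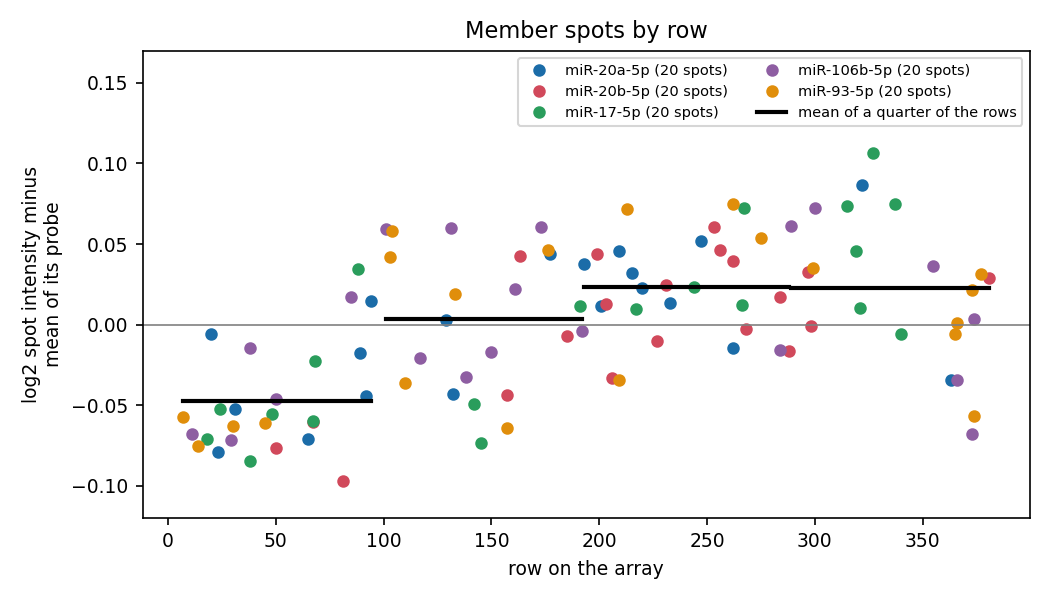
Log2 intensity of the 100 member spots minus the mean of their probe, against the row on the array. Points are spots, coloured by miRNA, and black lines are means over 4 equal ranges of rows. The mean is -0.05 in the lowest rows and 0.02 in the upper 2 ranges.

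The values deposited for analysis were log2 values after quantile normalization. They were 13.21 for miR-20a-5p, 12.52 for miR-20b-5p, 11.97 for miR-17-5p, 10.94 for miR-106b-5p and 9.92 for miR-93-5p, in the same order as the scanner signal. The deposited value minus the log2 total gene signal was -0.35 for miR-20a-5p, -0.29 for miR-20b-5p, -0.36 for miR-17-5p, -0.27 for miR-106b-5p and -0.20 for miR-93-5p. The 61 detected miRNAs with a signal of 1000 or more had a median of -0.29 with quartiles of -0.35 and -0.25, whereas the 155 with a signal of 100 to 1000 had a median of 0.02. The 5 members are among those 61, which ran from -0.52 to 0.01, so they lie in that range by construction. Of the 5, miR-17-5p at -0.36 and miR-93-5p at -0.20 lay outside the quartiles.

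The shift was unequal across the family. From miR-20a-5p to miR-93-5p the difference was 3.45 on the log2 scale in the scanner signal and 3.30 in the deposited values. Between miR-20b-5p and miR-17-5p it was 0.47 and 0.55.

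**Figure D5:**
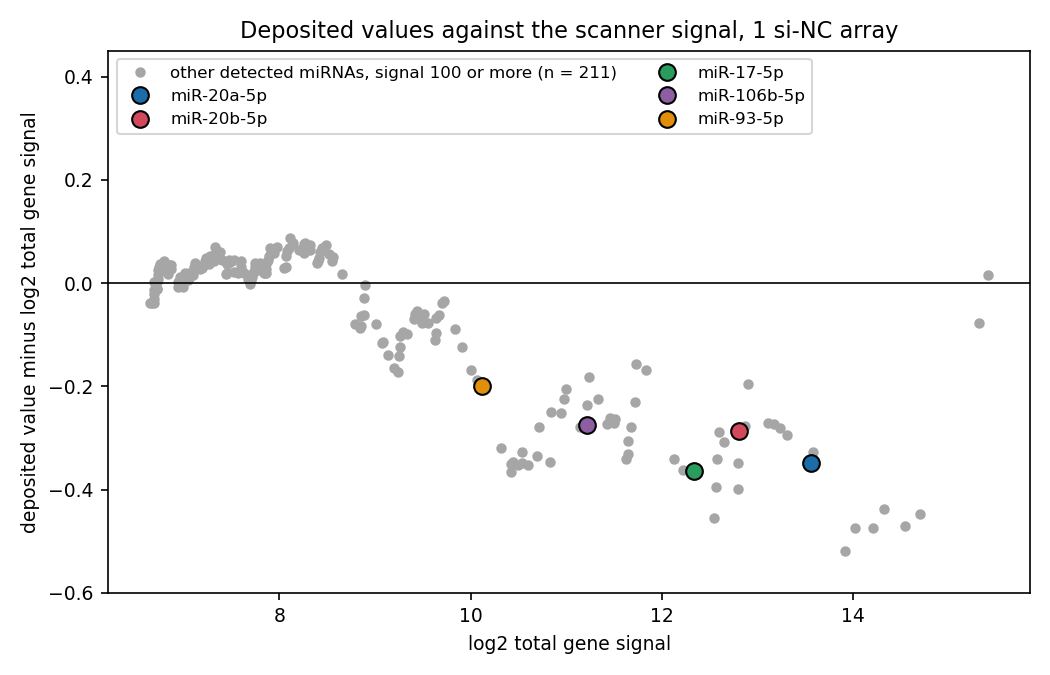
Deposited log2 value minus log2 total gene signal, against the log2 total gene signal, for 211 other detected miRNAs with a signal of 100 or more in grey and the 5 members in colour. Points are miRNAs on the 1 array. The members lie between -0.36 and -0.20, within the band of other miRNAs of like signal.

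For the opposite arms the deposited values were 8.49 for miR-17-3p and 7.81 for miR-20a-3p, beside log2 total gene signals of 8.43 and 7.79. For miR-93-3p, which was called detected, and miR-20b-3p, which was not, the deposited values were 2.3236 and 2.3219, the latter being the lowest value in the deposited table.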

How the data were processed

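RNA of 1 DLD-1 si-NC sample was hybridised to 1 one-colour Agilent miRNA array. Per the file headers, intensity values are spot signals from Feature Extraction 11.0.1.1, background-subtracted and not normalized between arrays, with total gene signals summed by the software. The authors deposited log2 values after quantile normalization, whose other arrays were not used here. The labels and the study's methods describe different labelling chemistries. Outlier spots were left out, probe means were taken over spots, and log2 levels were scaled to the 75th percentile of spots whose miRNA was detected. A probe entered the differences between probes when at least 50% of its spots were well above background. Precision is limited by the single array and its replicate spots. Members, marker lists and the rule for named miRNAs (the members, their opposite arms, other arms of their clusters, same-seed miRNAs and nearest sequences) were chosen with earlier results of these data known. Alternatives were 3 other rules for detection, another percentile base, normexp (limma 3.58.1, R 4.3.3, offset 50), outliers kept, medians over spots, the brightest probe alone, no probe filter and the deposited values, and, added after seeing the data, removal of medians of 16 blocks and a comparison with bright miRNAs. Python 3.11.15, numpy 2.4.6, pandas 2.3.3 and matplotlib 3.10.9 were used. Only the CV and the difference between probes were tested on simulated data, whose spots varied more than those of the member probes.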

Additional observations from a re-analysis of the deposited data

How the results depend on the processing

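All 5 members were detected under each of 4 rules, which passed 44.4%, 37.9%, 29.3% and 31.0% of all miRNAs. Their order of level was the same in 7 of 7 alternatives, although the choice of percentile cannot change it by construction. Nor can keeping outlier spots, as 0 of the member spots were flagged. The median level of the members, 6.59 on the log2 scale, became 9.03 with the percentile taken over all miRNA spots, 6.11 with normexp background correction, 7.15 with the brightest probe alone and 6.14 with the deposited values. The median difference between probes, 0.46, became 0.44 once block medians were removed, an alternative chosen after seeing the data. The median over all miRNAs beside it, 0.35, became 0.17 with normexp and 0.46 with no filter on dim probes. The median of the members thus stood above it in the main setting and with normexp. With no filter the median of the members, 0.46, did not stand above it. The median of deposited minus scanner value, -0.29, became -1.72 when the mean log2 spot signal replaced the total gene signal in both ways tried, where the factor of the software alone adds -1.45 by construction. No median of the members changed sign, although a difference of the brightest minus the dimmest probe cannot do so by construction. No paired analysis was possible because there was 1 array in 1 group, and leaving out a replicate was not possible for the same reason. Replicate spots measure technical spread on this array only, and signals close to the negative control spots, such as those of miR-93-3p and miR-519d-3p, limit what can be read of dim miRNAs.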
